A study of Mus musculus with 24 samples.

Results

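Cholesterol and fatty acid synthesis was followed through 31 genes in mouse embryonic stem cells that lacked Atf3 (knockout, KO) or carried it (wild type, WT). The genes were taken by symbol from the 53465 genes of the deposited table, with earlier results of these data known. They comprised 8 genes of the mevalonate steps, 12 of the squalene and sterol steps, 6 that encode SREBP, its regulators or a sterol carrier, and 5 of fatty acid synthesis. All 31 reached 1 FPKM (fragments per kilobase of exon, scaled for library size, a level that can be compared between genes) in at least 3 libraries, as did 15159 genes in all.

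Cells build cholesterol from acetyl-CoA through mevalonate, squalene and lanosterol, and build fatty acids from the same acetyl-CoA. Both routes are switched on by SREBP transcription factors, encoded by Srebf1 and Srebf2. When sterols are plentiful, Insig proteins hold SREBP and its escort Scap in the endoplasmic reticulum. When sterols run low, SREBP is cut, enters the nucleus and binds sterol response elements, often beside sites for NF-Y and Sp1. Dividing cells draw on both routes for new membrane.

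Messenger RNA was sequenced from 24 libraries, 3 in each of 8 groups: WT and KO cells before differentiation (day 0) and on days 3, 6 and 9 of it. All groups came from the same stem cell source, grown in serum with LIF, the GSK3 inhibitor CHIR99021 and the MEK inhibitor PD0325901 before differentiation. The differentiation medium, the edited part of Atf3, the number of KO clones and whether the 3 libraries of a group were separate cultures are not stated in the labels. The p-values therefore measure library to library spread within a group, part of which may be technical. By its title, the series concerns mesoderm and endothelial differentiation without Atf3.

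Libraries held 7855631 to 25274436 recovered reads (median 15611821), of which 4.42% to 45.6% lay in 3 rRNA-type genes. At day 6 Atf3 was 1.70 ± 2.15 FPKM in KO (SD, n = 3), with a highest library of 4.17, and at least 10.9 FPKM in WT. The highest KO libraries of days 0, 3 and 9 held 0.217, 0.611 and 0.714 FPKM, so the KO libraries of day 6 were less uniform. Atf3 was lower in KO than WT in all libraries of each day (exact two-sided permutation test, p = 0.1, the smallest possible with 3 against 3). The 13 naive pluripotency genes listed summed to 1490 to 1701 FPKM at day 0 and to 31.1 to 120 FPKM at day 6, where 12 of 13 had fallen in WT. The KO library labelled day 6 replicate 3 stood apart from the other 2 of its group: 13 listed genes of primitive red blood cells summed to 2525 and 2859 FPKM in KO replicates 1 and 2, to 180 in replicate 3 and to 28.6 to 110 in WT. It also held the lowest share of rRNA-type reads at day 6, 6.1%, against 18.6% and 11.6% in KO replicates 1 and 2 and 18.4%, 12.2% and 45.6% in WT replicates 1 to 3.

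At day 6 most sterol and fatty acid synthesis genes had higher mean levels in KO than in WT, but no single gene passed the test. The log2 difference was positive for 30 of 31 genes and ranged from -0.23 (Scap) to 1.52 (Hmgcs1), with a median of 0.56 against 0.02 over all genes tested. None of the 31 passed an adjusted p of 0.05 (limma on log2(FPKM + 1), Benjamini-Hochberg), where 0.726% of all genes did, and 15 of 31 had an unadjusted p under 0.05, against 10% of all genes. By role, the median difference was 0.75 for the sterol steps, 0.52 for fatty acid synthesis, 0.41 for the regulators and 0.35 for the mevalonate steps. Under TPM all 31 differences were positive, with a median of 1.25 against 0.51 over all genes. With voom on recovered reads the adjusted count was also 0 of 31, beside 0.363% of all genes. On the other days the median of the members was near 0: the median difference was 0.00 at day 0, -0.01 at day 3 and -0.01 at day 9, and no member had an unadjusted p under 0.05, against 1.11%, 0.798% and 5.2% of all genes. At an adjusted p of 0.05 the calls over all genes were 0.0132% at day 0, 0.0132% at day 3 and 0.963% at day 9, with no member among them.

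**Figure D1:**
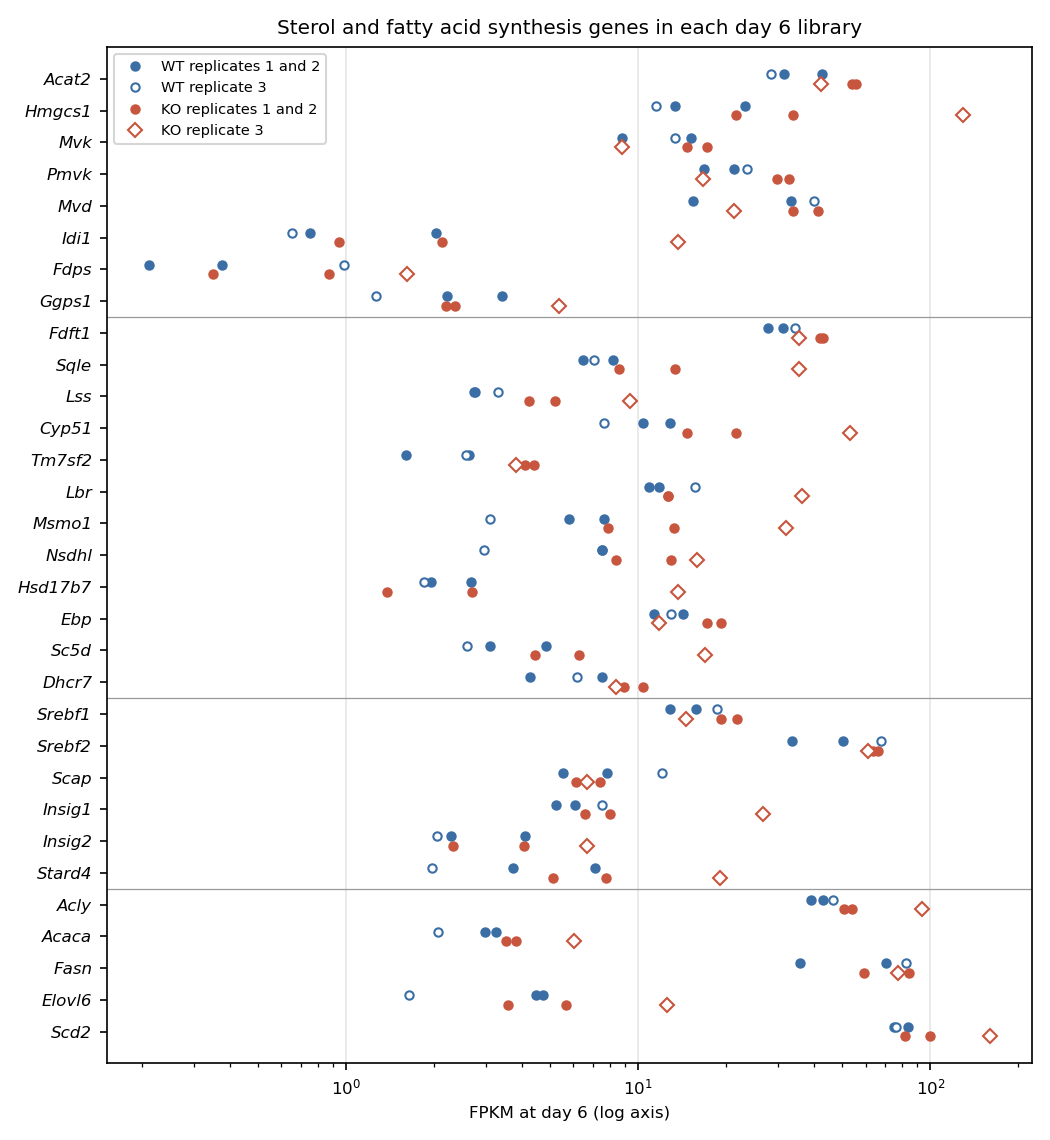
FPKM of the 31 genes in each of the 6 day 6 libraries on a log axis, with mevalonate, sterol, regulator and fatty acid genes separated by lines. KO replicate 3 (open diamonds) holds the highest value for 19 genes, and the filled KO points lie above all WT points for 14.

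Of the 6 genes with the largest moderated t at day 6, all catalyse steps from squalene to cholesterol. Lss, which closes squalene epoxide into lanosterol (ENSMUSG00000033105, mm10 chr10:76531588-76557138), read 2.77, 2.74 and 3.32 FPKM in WT replicates 1 to 3 and 4.21, 5.20 and 9.38 FPKM in KO replicates 1 to 3. Its KO minus WT difference was 0.82 (0.21 SE) on the log2 scale, with a limma adjusted p of 0.0880. Every KO library lay above every WT library, and KO replicate 3 was the highest.

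Cyp51, the lanosterol demethylase (ENSMUSG00000001467, chr5:4081145-4104746), stood at 10.4, 12.8 and 7.64 FPKM in the WT and 14.7, 21.6 and 53.0 FPKM in the KO libraries, a log2 difference of 1.27 (0.33 SE, adjusted p = 0.0880). Msmo1, which starts removal of the next methyl groups (ENSMUSG00000031604, chr8:64718139-64733792), stood at 5.78, 7.65 and 3.10 FPKM in WT and 7.87, 13.3 and 32.0 FPKM in KO, a difference of 1.37 (0.36 SE, adjusted p = 0.0908). For both genes the groups did not overlap, and the KO libraries were spread more widely than the WT libraries.

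Squalene epoxidase, Sqle (ENSMUSG00000022351, chr15:59315077-59331192), measured 6.45, 8.17 and 7.03 FPKM in WT and 8.62, 13.3 and 35.6 FPKM in KO, and the difference was 1.07 (0.32 SE, adjusted p = 0.160). Nsdhl, which acts after Msmo1 (ENSMUSG00000031349, chrX:72918557-72958514), measured 7.48, 7.53 and 2.97 FPKM in WT and 8.41, 12.9 and 15.8 FPKM in KO, with a difference of 0.98 (0.30 SE, adjusted p = 0.184). The WT and KO libraries of both genes were separate, and KO replicate 1 lay just above the highest WT library. Sc5d, a sterol desaturase (ENSMUSG00000032018, chr9:42251595-42264256), measured 3.11, 4.84 and 2.59 FPKM in WT and 4.44, 6.27 and 16.9 FPKM in KO, a difference of 1.01 (0.31 SE, adjusted p = 0.188). Its groups overlapped, since KO replicate 1 fell below WT replicate 2.

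In all, the 3 KO libraries lay above the 3 WT libraries for 10 of 31 genes at day 6, against 4.18% of all genes, and below them for 0, against 3.73% of all genes. The 10 were Fdft1, Sqle, Lss, Cyp51, Tm7sf2, Msmo1, Nsdhl and Dhcr7 of the sterol steps and Acly and Acaca of fatty acid synthesis. KO replicates 1 and 2 alone lay above all WT libraries for 14 of 31, the same 10 with Acat2, Pmvk, Ebp and Srebf1, against 10.7% of all genes.

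The size of these differences rested in part on KO replicate 3. It held the highest of the 6 day 6 values for 19 of 31 genes, against 32.6% of all genes, and the highest of all 24 libraries for 12, against 9.59%. It exceeded 2 times the mean of KO replicates 1 and 2 for 14 genes, against 20% of all genes, and lay under that mean for 11. Without it, 29 of 31 differences were still positive and the median was 0.41, against 0.03 over all genes. In that fit 0 of the 31 passed the adjusted threshold, where 139 of all genes did, and 12 had an unadjusted p under 0.05. The share of all genes under that unadjusted p is not given for this fit. Lss then differed by 0.53, Cyp51 by 0.77, Msmo1 by 0.86, Sqle by 0.52, Nsdhl by 0.79 and Sc5d by 0.51. WT replicate 3 held the lowest of the 6 values for Cyp51, Msmo1, Nsdhl and Sc5d, but not for Lss or Sqle. With both replicate 3 libraries left out, these 6 genes differed by 0.60, 0.59, 0.56, 0.51, 0.43 and 0.36 in the same order. In that fit 28 of 31 differences were positive, with a median of 0.43 against 0.03 over all genes. None of the 31 passed, where 108 of all genes did, and 8 had an unadjusted p under 0.05 (share over all genes again not given). Leaving out KO replicate 1 instead gave 6 passing genes (Hmgcs1, Sqle, Lss, Cyp51, Msmo1 and Sc5d, all higher in KO), and leaving out WT replicate 2 gave 2 (Cyp51 and Msmo1). Over all 15159 genes the calls were 142 and 373 in these fits, against 110 with all libraries.

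**Figure D2:**
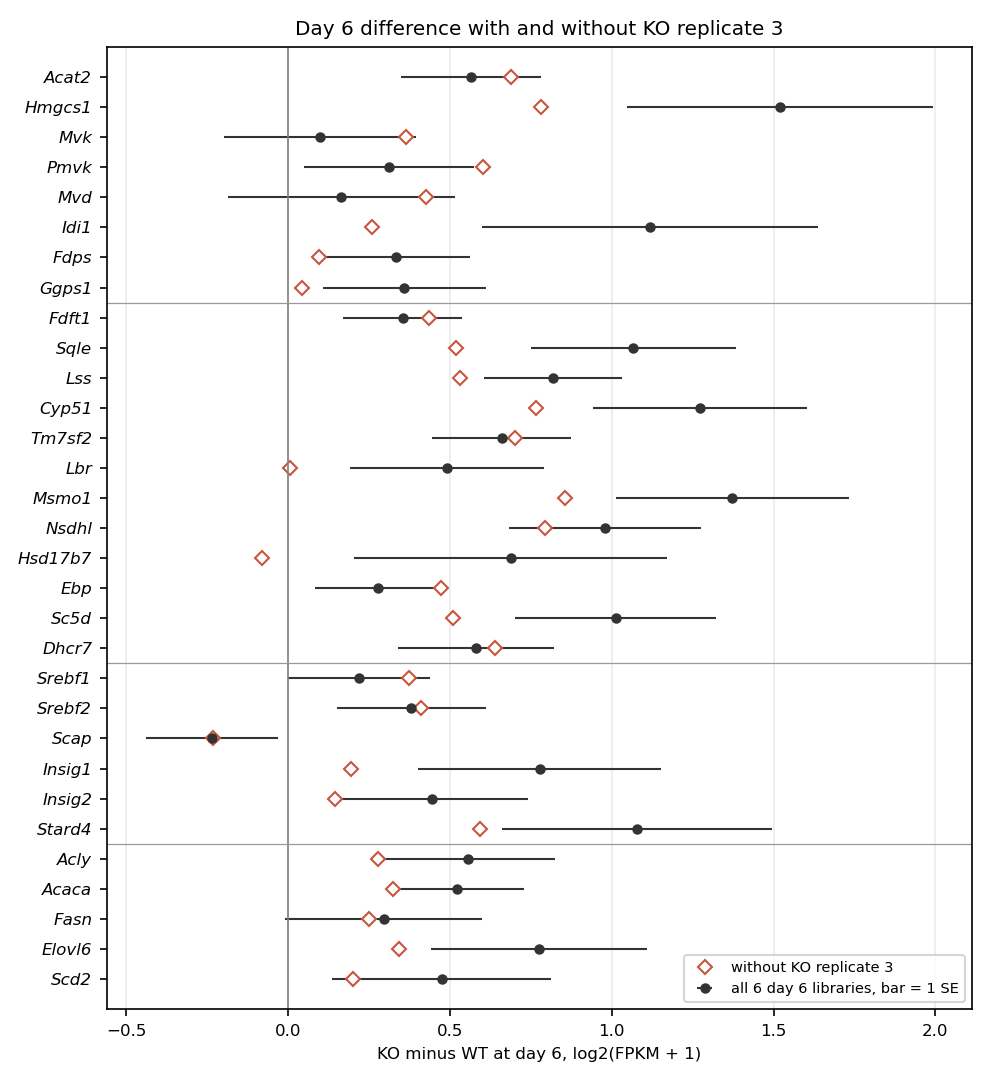
KO minus WT difference at day 6 on the log2(FPKM + 1) scale for each of the 31 genes, from all 6 libraries with its standard error (filled) and without KO replicate 3 (open). Hmgcs1 moves from 1.52 to 0.78 and Idi1 from 1.12 to 0.26, while Scap is the only gene below 0 in the fit with all libraries.

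The mevalonate steps split into genes that were high and genes that were low in KO replicate 3. Hmgcs1, which makes HMG-CoA, read 13.4, 23.1 and 11.5 FPKM in WT and 21.5, 33.8 and 129 FPKM in KO. Idi1, the isopentenyl diphosphate isomerase, read 0.752, 2.03 and 0.654 FPKM in WT and 0.948, 2.13 and 13.7 FPKM in KO. For both, KO replicate 1 lay within the WT range, KO replicate 2 lay above it, and the third KO library was the highest by far. Fdps, which makes farnesyl diphosphate, stood at 0.376, 0.211 and 0.981 FPKM in WT and 0.351, 0.875 and 1.62 FPKM in KO, and Ggps1, which makes geranylgeranyl diphosphate, at 2.22, 3.42 and 1.26 FPKM in WT and 2.19, 2.36 and 5.34 FPKM in KO. Fdps is uncertain, because 26.7% of its exon bases are shared with Gm43738 on the same strand.

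The remaining mevalonate genes were not high in KO replicate 3. Mevalonate kinase, Mvk, stood at 15.2, 8.76 and 13.4 FPKM in WT and 17.2, 14.7 and 8.78 FPKM in KO. Its successor Pmvk stood at 21.2, 16.7 and 23.6 FPKM in WT and 32.9, 29.9 and 16.7 FPKM in KO, and Mvd, the decarboxylase, at 33.4, 15.4 and 39.97 FPKM in WT and 41.1, 33.8 and 21.2 FPKM in KO. Acat2, the thiolase that opens the route, stood at 42.7, 31.4 and 28.4 FPKM in WT and 53.9, 55.7 and 42.4 FPKM in KO. In these 4 genes KO replicate 3 was the lowest KO library, inside the WT range or at its edge.

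Among the other sterol genes, Fdft1 (squalene synthase) stood at 31.4, 27.7 and 34.5 FPKM in WT and 41.9, 42.9 and 35.6 FPKM in KO. Tm7sf2 and Lbr both encode sterol reductases, and Lbr is also a protein of the inner nuclear membrane. Tm7sf2 stood at 2.62, 1.60 and 2.57 FPKM in WT and 4.11, 4.38 and 3.82 FPKM in KO, and Lbr at 10.9, 11.8 and 15.6 FPKM in WT and 12.7, 12.7 and 36.5 FPKM in KO. The KO libraries of Tm7sf2 lay close together above WT, whereas Lbr was set apart by KO replicate 3 alone. Hsd17b7, a ketosteroid reductase, stood at 1.95, 2.68 and 1.84 FPKM in WT and 1.38, 2.71 and 13.6 FPKM in KO, and Ebp, a sterol isomerase, at 14.3, 11.4 and 12.9 FPKM in WT and 19.2, 17.1 and 11.7 FPKM in KO. Dhcr7, which makes cholesterol from its last precursor on one branch, stood at 7.52, 4.24 and 6.15 FPKM in WT and 8.97, 10.4 and 8.42 FPKM in KO.

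Of the 6 regulator and carrier genes 1 had an unadjusted p under 0.05, with a median difference of 0.41. Srebf1 stood at 15.7, 12.8 and 18.6 FPKM in WT and 21.7, 19.2 and 14.6 FPKM in KO, Srebf2 at 50.4, 33.6 and 67.6 FPKM in WT and 66.4, 63.5 and 61.0 FPKM in KO, and Scap at 7.79, 5.54 and 12.1 FPKM in WT and 7.42, 6.13 and 6.69 FPKM in KO. All 3 overlapped between the genotypes, and KO replicate 3 was not the highest library for any of them. Insig1, itself an SREBP target that restrains SREBP, stood at 5.23, 6.09 and 7.49 FPKM in WT and 6.57, 8.002 and 26.7 FPKM in KO, and Insig2 at 2.28, 4.11 and 2.05 FPKM in WT and 2.31, 4.07 and 6.67 FPKM in KO. Stard4, a carrier that moves sterol between membranes, stood at 3.73, 7.09 and 1.97 FPKM in WT and 5.11, 7.74 and 19.1 FPKM in KO. In these 3 genes the third KO library was the highest of the 6.

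In fatty acid synthesis, Acly, which supplies cytosolic acetyl-CoA, stood at 39.2, 43.1 and 46.6 FPKM in WT and 50.48, 53.9 and 94.0 FPKM in KO. Acaca, which makes malonyl-CoA, stood at 3.25, 2.99 and 2.06 FPKM in WT and 3.82, 3.52 and 6.04 FPKM in KO, and Fasn, the fatty acid synthase, at 70.4, 35.9 and 82.6 FPKM in WT and 84.7, 59.3 and 77.7 FPKM in KO. The KO and WT libraries were separate for Acly and Acaca and overlapped for Fasn. Elovl6, an elongase, stood at 4.47, 4.71 and 1.64 FPKM in WT and 3.59, 5.66 and 12.6 FPKM in KO, and Scd2, a desaturase, at 75.3, 83.7 and 76.3 FPKM in WT and 82.0, 99.4 and 160 FPKM in KO. Both overlapped between the genotypes through KO replicate 1.

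The KO minus WT difference of day 6 was also set against that of day 0. This interaction was positive for 30 of 31 genes, with a median of 0.54, and the largest was 1.59 for Msmo1. None passed (limma, 0 of 31, lowest adjusted p = 0.551, and 0 of 31 with voom), where 0.112% of all genes did, and 8 had an unadjusted p under 0.05, against 4.27% of all genes. None passed at day 3 or day 9 either, against 0.0132% and 0.264% of all genes, and 0 members had an unadjusted p under 0.05 there (0 passed with voom), so a genotype difference particular to day 6 was not shown for any single gene.

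Sequence before the start of these genes was read from the RefSeq promoter table (GRCm38.p6, 250 bases before to 50 after each start), which held 26 of the 31. The letters CCAAT, bound by NF-Y, occurred on either strand in 22 of 26 genes (84.6%), against 41.1% of all 27025 genes of the table and 42.7% of the 9876 tested genes in it. GGGCGG, bound by Sp1, occurred in 21 of 26 (80.8%), against 38.2% of all and 69.5% of tested genes. The sterol response element TCACNCCAC occurred in 1 of 26 (3.85%), Hmgcs1, against 1.44% of all and 1.49% of tested genes, and the CRE letters TGACGTCA in 0 of 26, against 2.03% and 3.51%. The motifs searched do not contain one another, and a match is not a binding site. Only these exact letters were searched in these windows, so a missing match does not show that a site is absent. The sequences are given 5′ to 3′ on the strand of the gene as 150 bases that end at the base before the start in RefSeq or GENCODE, whichever comes first, for Hmgcs1, 3 of the 6 leading day 6 genes (Lss, Nsdhl and Sc5d) and Mvk, which was not high in KO replicate 3. Capitals mark CCAAT or its reverse ATTGG and, in Hmgcs1, the sterol response element.
Hmgcs1 (chr13:119690201-119690350, +): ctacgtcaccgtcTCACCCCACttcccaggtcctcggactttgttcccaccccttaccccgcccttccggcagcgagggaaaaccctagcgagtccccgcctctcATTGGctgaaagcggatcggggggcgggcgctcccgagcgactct
Lss (chr10:76531438-76531587, +): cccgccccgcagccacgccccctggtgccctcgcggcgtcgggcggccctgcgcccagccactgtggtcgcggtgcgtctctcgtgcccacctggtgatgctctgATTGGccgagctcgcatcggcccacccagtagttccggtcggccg
Nsdhl (chrX:72918371-72918520, +): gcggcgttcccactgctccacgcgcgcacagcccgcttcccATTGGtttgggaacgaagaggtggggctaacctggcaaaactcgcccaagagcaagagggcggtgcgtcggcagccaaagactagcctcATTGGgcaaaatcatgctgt
Sc5d (chr9:42264301-42264450, -): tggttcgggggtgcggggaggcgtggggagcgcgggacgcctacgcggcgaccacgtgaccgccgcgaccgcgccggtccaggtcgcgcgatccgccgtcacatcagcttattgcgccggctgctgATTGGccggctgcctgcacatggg
Mvk (chr5:114444119-114444268, +): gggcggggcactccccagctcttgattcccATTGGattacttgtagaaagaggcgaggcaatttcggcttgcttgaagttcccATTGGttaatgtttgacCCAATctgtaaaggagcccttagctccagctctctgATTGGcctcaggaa
In these windows Mvk held 4 matches to CCAAT and Nsdhl 2, and the other 3 genes held 1 each.

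In WT cells most of the 31 genes had their lowest mean FPKM at day 6. For 21 of the 31 genes the lowest of the 8 group means was that of WT day 6, against 19% of all genes. For 3 (Srebf2, Scap and Fasn) it was that of WT day 9. Between day 0 and day 6, 18 of 31 fell in WT (limma, adjusted p under 0.05) and 0 rose, where 25.2% of all genes fell and 22.5% rose. Their median log2 change was -0.86, against -0.01 over all genes. By role, 10 of 12 sterol genes, 5 of 5 fatty acid genes, 1 of 8 mevalonate genes (Idi1) and 2 of 6 regulators (Srebf1 and Insig1) fell. With the values rescaled to TPM (equal sums of level over all genes in each library), 4 fell and 0 rose.

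Insig1 had the steepest fall in WT, from 31.1 ± 12.9 to 6.27 ± 1.14 FPKM (SD, n = 3), a log2 change of -2.08 (limma adjusted p = 0.000131). Acly fell from 151 ± 7.01 to 42.9 ± 3.70 FPKM (log2 change -1.80, limma adjusted p = 1.4e-05) and Dhcr7 from 18.3 ± 3.77 to 5.97 ± 1.65 FPKM (-1.48, limma adjusted p = 3.97e-05). In these genes no WT day 6 library reached the lowest day 0 library. Idi1 changed by -1.56, Scd2 by -1.41, Msmo1 by -1.31, Lbr by -1.26, Sqle by -1.16, Acaca by -1.09, Lss by -1.09 and Cyp51 by -1.06, all past the threshold. Mvk (0.11) and Pmvk (0.07) were the genes with a positive difference, and neither passed.

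In KO cells fewer members passed between day 0 and day 6. There 6 of 31 fell and 1 rose, where 22.3% of all genes fell and 21.4% rose, and the median was -0.03, against 0.03 over all genes. Lbr, Dhcr7, Insig1, Acly, Acaca and Scd2 fell and Sc5d rose. Without KO day 6 replicate 3, 10 members passed, 1 higher and 9 lower. Without KO day 6 replicate 2, 4 passed, 1 higher and 3 lower. Under TPM 2 rose and 0 fell, and with equal sums outside the rRNA-type genes 0 rose and 8 fell. The median change over all genes was 0.38 under TPM and -0.06 with equal sums. Calls over all genes are not given for these fits. The test of the genotype difference in this step is the interaction given above, which no gene passed.

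**Figure D3:**
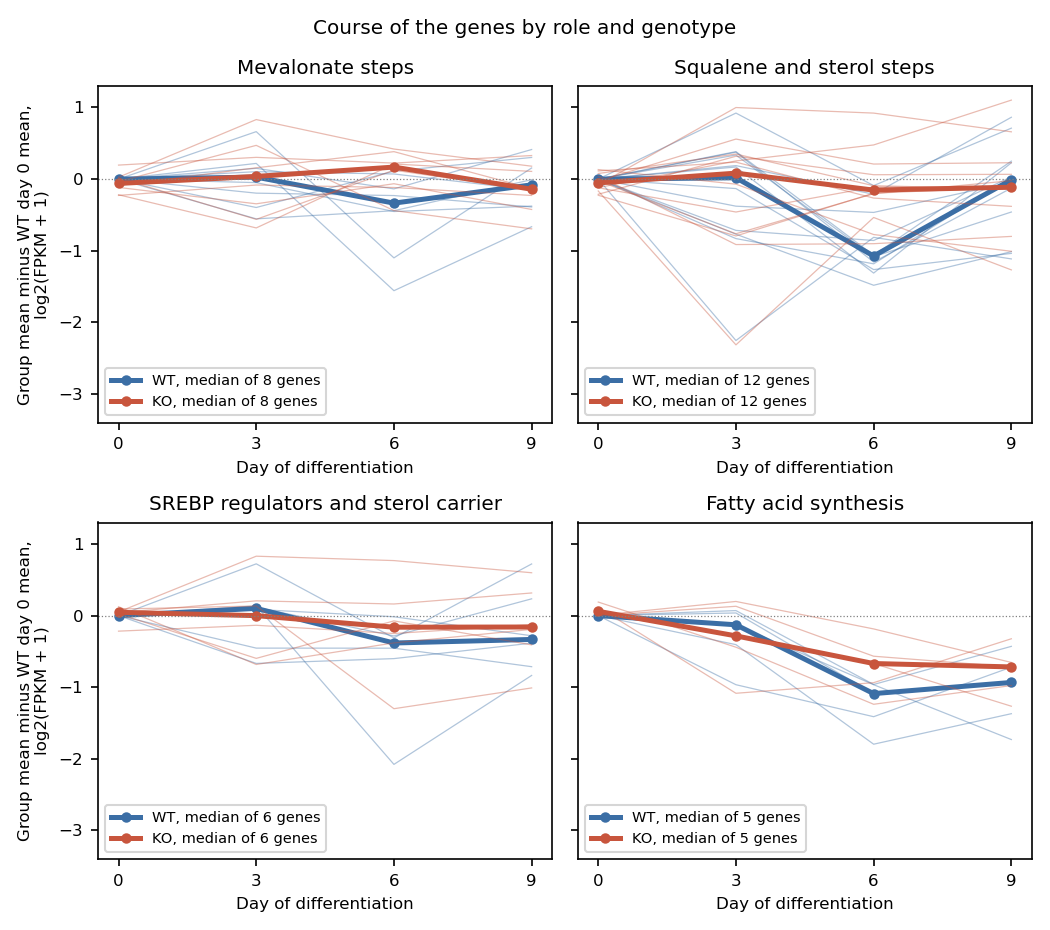
Group means by day relative to the WT day 0 mean on the log2(FPKM + 1) scale, in 4 panels by role, for WT (blue) and KO (red), with thin lines for single genes and thick lines for their medians. The WT median of the 12 sterol genes dips to about 1 unit below day 0 at day 6 and is back near it at day 9, and on this scale the median of the 5 fatty acid genes is below day 0 at days 6 and 9 in both genotypes. Over all 31 members at day 9, the fits under TPM give 5 higher and 0 lower in each genotype.

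From day 6 to day 9 several sterol genes rose in WT. Sqle, Cyp51, Tm7sf2, Msmo1, Nsdhl and Insig1 rose, 6 of 31, and 0 fell, where 8.15% of all genes rose and 5.13% fell. Msmo1 rose from 5.51 ± 2.29 to 17.2 ± 2.16 FPKM (SD, n = 3; log2 change 1.54, limma adjusted p = 0.00758). Cyp51 rose by 1.31, Insig1 by 1.24 and Nsdhl by 1.21. The count was 1 without WT day 6 replicate 3, 11 without WT day 6 replicate 2 and 2 with the rRNA-type share as a covariate. Under TPM 20 rose and with equal sums outside the rRNA-type genes 11 rose, with 0 lower in both. The median change over all genes also moved, from 0.02 in the fit reported to 0.78 under TPM and 0.27 with equal sums. The share of all genes called is not given for these alternative fits. In KO, Ebp fell over the same interval (-0.73, limma adjusted p = 0.0193) and 0 of 31 rose, where 2.45% of all genes fell and 6.06% rose. The call on Ebp was lost without KO day 6 replicate 1 (limma adjusted p = 0.114), without KO day 6 replicate 2 (0.0841), without KO day 9 replicate 3 (0.132), under TPM (0.655) and in the compared groups alone (0.253).

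At day 9 the members were called lower than day 0 about as often as all genes were, in both genotypes. In WT, 7 of 31 were lower and 0 higher, where 23.8% of all genes were lower and 22.2% higher: Lbr, Ebp, Dhcr7, Srebf2, Acly, Acaca and Fasn. In KO, 7 were lower and 1 (Hsd17b7) higher, where 22.7% of all genes were lower and 22.4% higher. The 7 in KO were Lbr, Ebp, Dhcr7, Insig1, Acly, Acaca and Fasn. Fasn changed by -1.73 in WT and -1.33 in KO, and Acly by -1.37 and -1.17. These directions depend on the scale: under TPM, where the median change of all genes was 0.74 in WT and 0.68 in KO, 5 members were higher and 0 lower in each genotype. With equal sums outside the rRNA-type genes, 0 were higher and 5 lower in KO, and 5 passed in KO without KO day 9 replicate 3. The share of all genes called is not given for these alternative fits. Hsd17b7 in KO rests on replicate 1, at 15.4 FPKM against 3.57 and 5.30, and its adjusted p was 0.279 without that library.

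At day 3 single genes moved with little change in the whole. Ebp fell from 23.5 ± 4.02 to 4.09 ± 0.391 FPKM in WT (SD, n = 3; log2 change -2.25, limma adjusted p = 2.18e-08) and changed by -2.15 in KO (limma adjusted p = 4.18e-08). The WT mean of day 3 was 17.5% of that of day 0. Sc5d rose in both, by 0.92 in WT and 1.08 in KO. Its call in WT was lost in 5 of the 6 fits that left out 1 WT library of these days (limma adjusted p from 0.0519 to 0.132), being kept without WT day 3 replicate 2, and with no filter (0.0596), and in KO without KO day 0 replicate 1 (0.0523). In WT 1 of 31 rose and 6 fell (Tm7sf2, Nsdhl, Ebp, Dhcr7, Srebf1 and Scd2), where 11.4% of all genes rose and 14.5% fell. Without WT day 0 replicate 1, or without WT day 3 replicate 3, 1 member passed, and without WT day 0 replicate 2, WT day 0 replicate 3 or WT day 3 replicate 1, 4 passed. In KO 1 rose and 5 fell (Ebp, Dhcr7, Srebf1, Srebf2 and Scd2), where 11.9% rose and 16.2% fell, and 3 passed without KO day 3 replicate 3. Under TPM 0 rose and 1 fell in each genotype, and with equal library sums outside the rRNA-type genes 0 rose and 3 fell in WT. The share of all genes called is not given for the alternative fits of day 3.

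Between day 3 and day 6, 14 of 31 fell and 1 (Ebp) rose in WT, where 19.1% of all genes fell and 19.5% rose. Insig1 fell by 2.21, Idi1 by 1.78 and Hmgcs1 by 1.76 on the log2 scale. In KO, Insig1, Acly and Acaca fell and Acat2, Mvk, Tm7sf2 and Ebp rose, where 14.9% of all genes fell and 17.7% rose. Without KO day 6 replicate 3, 15 of 31 passed in KO, 4 higher and 11 lower. Of the 15159 genes tested 6672 passed in that fit, a like share in both directions together. Without KO day 6 replicate 1, or without replicate 2, Ebp and Insig1 passed and the other 5 did not. Over all genes 3694 and 3427 passed in these 2 fits. Under TPM the step gave 1 higher and 2 lower in WT and 2 higher and 0 lower in KO. With equal sums outside the rRNA-type genes it gave 2 higher and 3 lower in KO. Calls over all genes in KO were 3261 under TPM and 4966 with equal sums. The median change over all genes was -0.07 in WT and 0.24 in KO under TPM, and -0.17 in KO with equal sums.

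Within groups, the levels also moved with the share of rRNA-type reads. That share differed between groups too, from 25.7% to 32.8% at day 0 against 4.42% to 14.9% at day 9. At day 6 it was 6.1% to 18.6% in KO and 12.2% to 45.6% in WT, so it is partly bound up with day and genotype. In a fit with that share (log2) beside the 8 groups, added after the data were seen, 14 of 31 genes were lower and 5 higher with a higher share, where 23.6% of all genes were lower and 26.8% higher. The steepest slopes were those of Idi1 (-0.84 per doubling of the share), Stard4 (-0.79) and Hmgcs1 (-0.79). Mvk, Pmvk, Mvd, Tm7sf2 and Ebp had positive slopes, from 0.21 to 0.52. Within groups, Idi1 was highest in the library with the lowest share in 7 of 8 groups and Stard4, Insig2 and Scd2 in 6 of 8, while Mvk, Acat2 and Fasn were lowest there in 6 of 8. With the share held equal, the KO minus WT differences at day 6 were 0.75 for Hmgcs1, 0.29 for Idi1, 0.68 for Lss, 0.82 for Cyp51 and 0.85 for Msmo1, the median was 0.53, 29 of 31 were positive and 0 of 31 passed.

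**Figure D4:**
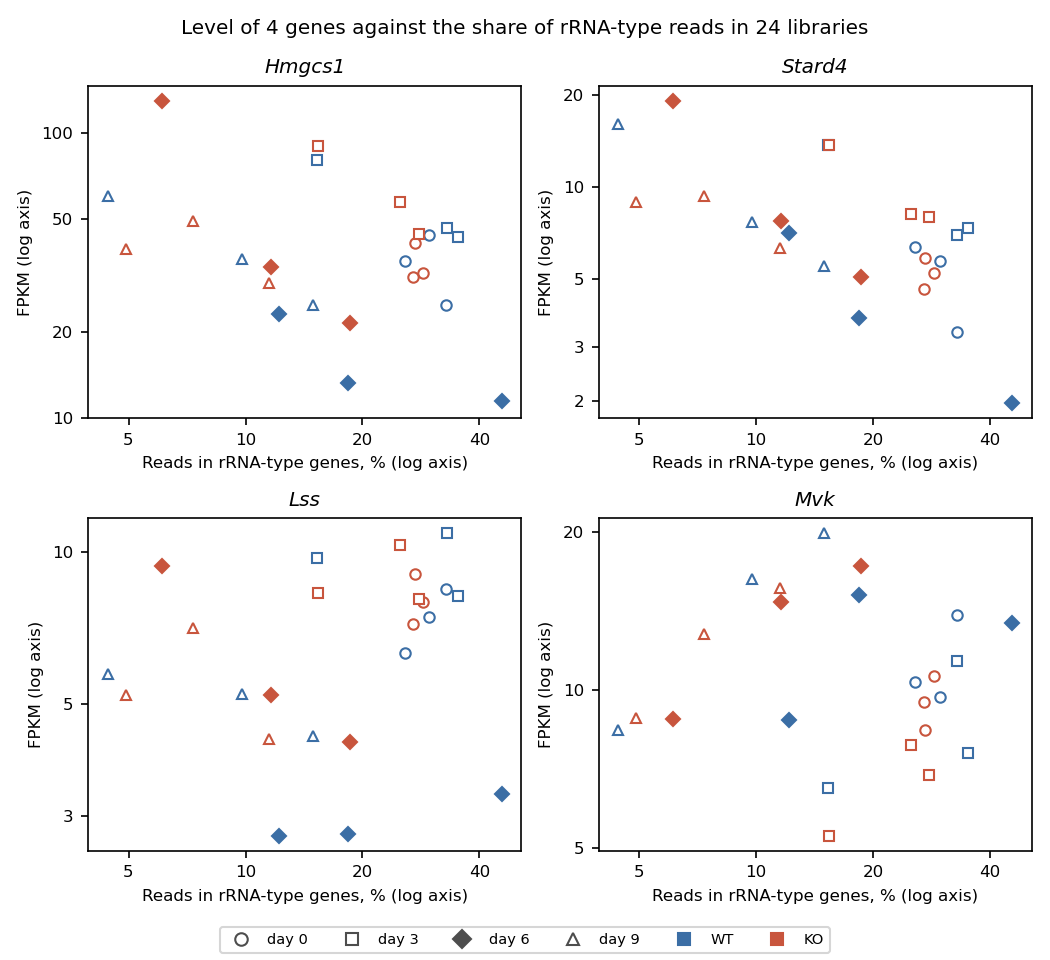
FPKM of Hmgcs1, Stard4, Lss and Mvk against the percentage of reads in rRNA-type genes in the 24 libraries, both on log axes, with colour for genotype, symbol for day and day 6 filled. KO day 6 replicate 3, at 6.1%, is the highest of all libraries for Hmgcs1 (129 FPKM) and Stard4 (19.1 FPKM), while Mvk there is 8.78 FPKM and WT day 6 replicate 3, at 45.6%, is the lowest for both Hmgcs1 and Stard4.

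Summed levels of several other cell type marker lists were lower in KO day 6 replicate 3 than in the other KO libraries of that day. Genes of visceral endoderm and yolk sac, 17 listed, summed to 1139 and 1085 FPKM in KO replicates 1 and 2, to 280 in replicate 3 and to 369 to 542 in WT, with Apoc2 listed at 0 in all 6. Of the 10 tested red blood cell genes 6 were higher in KO at day 6, where 0.231% of all genes were higher and 0.495% lower. Hbb-bh1 differed by 4.73 on the log2 scale, and was 126 FPKM in KO replicate 3 against 1376 and 1722 in the other KO libraries. The 13 cardiac genes summed to 21.6 FPKM in KO replicate 3, to 69.4 and 42.4 in KO replicates 1 and 2 and to 32.2 to 93.5 in WT, and none passed. The 13 endothelial genes summed to 29.0 and 34.9 FPKM in KO replicates 1 and 2, to 18.6 in replicate 3 and to 14.7 to 37.2 in WT, and of 12 tested 1 rose in KO, Tie1 (0.92). Proliferation genes, 15 listed, summed to 489, 452 and 531 FPKM in KO replicates 1 to 3 and to 454 to 496 in WT, and 0 of 15 passed. Their sum was thus highest in KO replicate 3. So was that of the naive pluripotency genes, 69.3 FPKM against 61.0 and 40.6 in KO replicates 1 and 2, inside the WT range of 31.1 to 120. The 10 neural genes summed to 17.8 FPKM in KO replicate 3, between 16.7 and 20.2 in replicates 1 and 2, and to 13.7 to 15.0 in WT. The 13 trophoblast genes summed to 1846 FPKM against 2627 and 2318, and to 2003 to 2472 in WT. The part of these cell types, rRNA-type reads or depth in the sterol gene levels of this library was not tested. In bulk RNA, fewer cells of a type and less RNA per cell cannot be told apart.

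Genes of the surrounding pathways were counted from lists chosen by function. None passed between KO and WT at day 6 among 10 tested other sterol synthesis and SREBP2 target genes (median difference 0.41), 26 other fatty acid genes (0.29), 12 genes of SREBP processing and turnover (0.33), 9 of sterol efflux and esterification (0.19), 14 of sterol transport (0.23) and 19 of fatty acid oxidation (0.05). Of the 10 other sterol synthesis and SREBP2 target genes 5 fell and 0 rose in WT from day 0 to day 6, against 25.2% and 22.5% of all genes, among them Tmem97 (-1.24) and Cyb5b (-1.15).

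In WT from day 0 to day 6, where 25.2% of all genes fell and 22.5% rose, 14 of 26 other fatty acid genes fell and 4 rose. The largest changes were in Scd1 (-2.34), a desaturase, Elovl1 (1.68), an elongase, Acsl1 (-1.55), which activates fatty acids, and Hsd17b12 (-1.53). Against the same shares, 6 of 14 sterol transport genes rose and 3 fell, with the largest changes in Lrp1 (1.42), Lipa (0.94), the lysosomal acid lipase, Stard3 (0.92) and Gramd1b (-0.86). Of 9 genes of efflux and esterification, 2 rose (Soat1, 1.66, which esterifies cholesterol, and Mylip, 0.63) and 2 fell (Lpcat3, -0.75, and Abca1, -0.44). Fatty acid oxidation had 3 of 19 higher and 5 lower, near the shares over all genes, with the largest fall in Cpt1a (-3.89), which admits fatty acids to mitochondria. Among 15 proliferation genes 9 fell and 1 rose over the same days. Integrated stress response genes, a pathway of ATF family factors, had 0 of 14 pass between KO and WT at day 6 (median -0.04).

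Among the non-member genes whose 8 group means most resembled the mean z score of the 31 were Exoc1 (Pearson 0.97), Mrpl3 (0.96), Dync1li1 (0.96) and Stt3b (0.95). The mean z score was -1.24 in WT day 6, 0.23 in KO day 6 and between -0.11 and 0.48 in the other 6 groups. Single members followed that mean to different degrees: Sqle at 0.87, Lss at 0.84 and Msmo1 at 0.82 were closest, while Mvk (-0.27) and Scap (-0.17) ran against it. These values are over 8 group means that share libraries and scaling, and are given as a description.

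Among levels at WT day 0, Scd2 (210 ± 8.90 FPKM, SD, n = 3), Acly (151 ± 7.01) and Fasn (120 ± 32.0) were the most abundant of the 31, and Ggps1 (2.54 ± 0.670) and Fdps (1.05 ± 0.295) the least. Srebf2 (67.8 ± 13.7) exceeded Srebf1 (24.6 ± 6.41), and Insig1 (31.1 ± 12.9) exceeded Insig2 (3.52 ± 0.314), without overlap between the libraries of each pair. Exon bases of 13 of the 31 genes are shared with another annotated gene, over 10% of them in 6 genes (Hmgcs1, Fdps, Fdft1, Tm7sf2, Lbr and Scap), and since counting by strand is not stated, levels of these 6 are less certain.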

How the data were processed

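Poly(A)-selected RNA of 24 libraries was sequenced as read pairs, per the labels' protocols. Per the submitters' processing notes, the authors' tools included HISAT2 2.2.1 with the mm10 genome and featureCounts 2.0.1, beside Trimmomatic 0.39 and FastQC 0.11.9 for the reads, and DESeq2 1.30.1 in R 4.1.0. The deposited values are FPKM per gene, while their exact computation by the authors and any use of strand in counting are not stated in the labels. Groups came from the labels, where the batch entry only names genotype and day, so that batch and group cannot be told apart. One KO day 0 library was matched to its group but not to a replicate number.

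Levels were tested as log2(FPKM + 1) with limma 3.58.1 (R 4.3.3, trend, 8 groups, 16 residual degrees of freedom) over the 15159 genes at 1 FPKM or more in at least 3 libraries, with Benjamini-Hochberg adjustment and a threshold of 0.05. Differences on this scale understate changes of low genes. Reads were recovered from the steps of the low FPKM values with GENCODE exon lengths (95.51% to 96.87% of values up to 50 reads lay within 0.05 of a whole number). No pair of libraries of a group agreed within sampling noise. The depth limits low genes such as Fdps and Idi1 most. The scripts were tested on simulated data.

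The members and gene lists were chosen with earlier results of these data known. Library values were printed for all members at day 6, full statistics for the 6 with the largest moderated t there, and from each other list at most the 4 passing genes with the largest change. Genes of most like pattern were the 5 non-members with the highest Pearson correlation over the 8 group means. Some genes that these rules name are not reported here. Alternatives were TPM, equal library sums without rRNA-type genes, a pseudocount of 0.1, no filter, a filter at 5 FPKM, a replicate block, the compared groups alone, voom on recovered reads, and libraries left out. A covariate for the rRNA-type share was chosen after seeing the data. Same-numbered WT and KO libraries of day 3 deviated together from their group means (correlations 0.655, 0.614 and 0.599). Their shares of rRNA-type reads also rose in the same order in both genotypes. What an equal number means is not stated in the labels, and whether it marks a shared culture or preparation was not tested. The block changed no KO against WT call of a member at day 3.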

Additional observations from a re-analysis of the deposited data

How the results depend on the processing

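No member passed between KO and WT on days 0, 3 or 9 under any alternative run. At day 6 the count of passing members was 0 in the fit reported, 1 with the replicate block (Lss), and 0 to 6 with 1 library left out. With the block 147 of all genes passed. Same-numbered libraries correlated at 0.265, -0.259 and -0.467 at day 6 and at 0.196, 0.179 and -0.459 at day 9. Whether they shared a culture or preparation was not tested. The replicate block gave 11 members for WT day 9 against day 0.

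Under TPM the counts were 1 (WT day 3 against 0), 4 (WT day 6 against 0), 1 (KO day 3 against 0), 2 (KO day 6 against 0), 5 (KO day 9 against 0), 3 (WT day 6 against 3), 20 (WT day 9 against 6), 2 (KO day 6 against 3) and 0 (KO day 9 against 6). TPM also reversed the median change of WT day 9 against day 0 (0.63), Srebf2 in that comparison (0.28, adjusted p = 0.547) and Acaca in KO day 9 against day 0 (0.039, adjusted p = 0.96), all by limma. Equal sums without rRNA-type genes gave 3 (WT day 3 against 0), 5 (KO day 9 against 0) and 11 (WT day 9 against 6), and no filter gave 4 (WT day 3 against 0). The rRNA-type covariate gave 15 (WT day 9 against 0), 11, 14 and 15 (KO days 3, 6 and 9 against 0), 2 (WT day 9 against 6), 20 (KO day 6 against 3) and 3 (KO day 9 against 6). Fitting the compared groups alone gave 14, 4 and 15 (KO days 3, 6 and 9 against 0), 3 (WT day 9 against 6), 1 (KO day 6 against 3) and 0 (KO day 9 against 6). Without both day 6 replicate 3 libraries the counts were 11 (KO day 6 against 0), 16 (KO day 6 against 3) and 3 (KO day 9 against 6). Over all genes, KO day 6 against 3 gave 3261 calls under TPM, 8119 with the covariate and 7252 without both replicate 3 libraries. KO day 9 against 6 gave 1294, 1846 and 2406 in the same order. Calls over all genes are not given here for the other comparisons or for the compared groups alone. Whether the shifts are particular to the members, and their cause, was not tested.

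With 1 library left out the counts ran from 1 to 7 (WT day 3 against 0), 14 to 17 (WT day 6 against 0), 6 to 8 (WT day 9 against 0), 3 to 7, 4 to 10 and 5 to 8 (KO days 3, 6 and 9 against 0), 11 to 15 (WT day 6 against 3), 1 to 11 (WT day 9 against 6), 2 to 15 (KO day 6 against 3) and 0 to 3 (KO day 9 against 6). For KO day 6 against 3, the 15 stood beside 6672 calls over all genes (without KO day 6 replicate 3). The 2 stood beside 3694 and 3427 (without KO day 6 replicates 1 and 2). For KO day 9 against 6, the 3 stood beside 1902. Over all alternatives, calls of single members kept direction and threshold in 1042 cases, lost the threshold in 240 and reversed in 2.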
